A study of Mus musculus with 4 samples.

Results

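The immediate early response genes are a set of 34 named genes, taken as the rows of the deposited tables whose symbol matched a fixed list, out of 32344 listed genes (32285 without deprecated probes). The members are the AP-1 genes Fos, Fosb, Fosl2, Jun, Junb, Jund, Atf3 and Maff, the EGR genes Egr1, Egr2 and Egr3, and the NR4A nuclear receptors Nr4a1, Nr4a2 and Nr4a3. They further include the MAP kinase phosphatases Dusp1, Dusp2, Dusp5 and Dusp6, the RNA-decay and antiproliferative genes Zfp36, Zfp36l1, Btg1 and Btg2, and Ier2, Ier3, Ier5, Socs3, Klf4, Klf6, Myc, Csrnp1, Rhob, Gadd45b, Ppp1r15a and Cd69. All 34 members had a row and all 34 passed the filter on low counts in the comparison between cell types. The rule that picks them uses the gene symbol and no measured value.

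Immediate early genes are transcribed within minutes of a stimulus, because the factors that switch them on (SRF with its ETS partners, CREB, NFAT and NF-kB) are already present and only need a signal from kinases or calcium. Many of their products are transcription factors that drive a later wave of genes, and many others end the response: DUSP phosphatases switch off the MAP kinases, ZFP36 proteins destroy AU-rich mRNAs, and SOCS3 blocks cytokine receptors. In lymphocytes they report antigen-receptor and cytokine signals. In any cell they also respond to tissue digestion, heat and handling, so they are a well-known marker of how a cell suspension was prepared.

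CD45+ cells, which are immune cells, were sorted from mouse livers after collagenase digestion, red cell lysis and a Percoll gradient. They were then fixed and profiled by probe hybridisation in single cells. There were 4 libraries. In the GS(+/D)Hep library 1 copy of glutamine synthetase is deleted in hepatocytes. In the URI(+/D)Hep library 1 copy of URI, a prefoldin-like chaperone gene, is deleted in hepatocytes. The other 2 libraries were WT. All groups, WT included, had received tamoxifen for 1 week, and each library pooled 5 mice. The labels give neither the promoter that drove the recombination nor the age of the mice. The p-values of the comparison between gates measure how a gate's difference varies over these 4 libraries, with each library's own level removed. Those for GS and URI rest on the spread between the 2 WT libraries. Either spread may be partly technical. The deletions lie in hepatocytes, outside the sorted cells, so the sorted cells give no check of the genotype labels.

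The libraries held 24041049 to 51920505 UMIs, with 7453 to 9096 barcodes of at least 500 UMIs and medians of 4448 (GS), 4973 (URI), 3763 (WT replicate 1) and 2659 (WT replicate 2) UMIs per barcode. No full barcode was shared between libraries, which follows from a sample barcode that differs between them. Without that part, 1480 to 2076 droplet barcodes were shared by each pair of libraries. Lineages were gated on raw UMIs of 7 markers, at least 1 UMI of a gate's own markers and 0 of the others, which placed 65.0% to 71.0% of barcodes. The T gates were CD4 T cells (Cd3e, Cd4; 624 to 1423 cells per library), CD8 T cells (Cd3e, Cd8a; 452 to 1381), and cells with Cd3e only (662 to 762). The others were NK cells and ILC1 (Ncr1 without Cd3e; 532 to 828), B cells (Cd79a; 1119 to 1798) and neutrophils (Csf3r without Csf1r; 316 to 795). Markers that the gate rule did not use were checked: 6 further B markers summed to 5693 to 8117 CPM in the B gate and 20.1 to 65.3 CPM in the NK and ILC1 gate, and 6 neutrophil markers to 81347 to 154982 CPM in the neutrophil gate and 205 to 413 CPM in the NK and ILC1 gate. The NK list was at 7683 to 8775 CPM in its own gate and 3003 to 5015 CPM in neutrophils, since it holds Tyrobp, which myeloid cells also express. The 5 Kupffer markers reached at most 1.87 CPM in any tested gate of any library, and CPM is a gene's share of all UMIs of that gate and library, as parts in 1000000 UMIs. The number of probes per gene differs, so CPM is compared between gates and libraries, never between genes. Ranks of levels and the words "other gates" below refer to these 6 tested gates, and monocytes and cells with both Cd3e and Ncr1 are given apart. Beside each gene, 4 values stand in the order GS, URI, WT replicate 1, WT replicate 2.

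The promoter letters of 6 members are shown because they hold matches to response elements of kinds known to switch on immediate early genes. These 6 also include members that moved most in the comparisons below. Windows are the 250 bases before a RefSeq transcript start (GRCm38.p6), written on the gene's strand. Capitals mark the cyclic AMP response element TGACGTCA, its shorter core TGACG on either strand, the serum response element core (CArG box) and the TATA box TATAAA; a match is a description of the letters, not evidence of a bound factor.
Fos (chr12:85473640-85473889, plus strand): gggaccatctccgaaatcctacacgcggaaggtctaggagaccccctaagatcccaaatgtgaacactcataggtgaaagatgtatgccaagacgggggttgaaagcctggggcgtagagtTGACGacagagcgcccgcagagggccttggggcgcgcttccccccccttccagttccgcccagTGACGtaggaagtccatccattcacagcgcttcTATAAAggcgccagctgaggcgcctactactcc
Dusp1 (chr17:26508473-26508722, minus strand): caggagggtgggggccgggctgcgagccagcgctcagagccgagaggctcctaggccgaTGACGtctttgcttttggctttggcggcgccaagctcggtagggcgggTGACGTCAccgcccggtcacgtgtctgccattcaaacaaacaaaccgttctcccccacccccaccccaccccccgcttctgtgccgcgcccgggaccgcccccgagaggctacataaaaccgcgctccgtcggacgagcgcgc
Maff, 1 of 3 starts (chr15:79347270-79347519, plus strand): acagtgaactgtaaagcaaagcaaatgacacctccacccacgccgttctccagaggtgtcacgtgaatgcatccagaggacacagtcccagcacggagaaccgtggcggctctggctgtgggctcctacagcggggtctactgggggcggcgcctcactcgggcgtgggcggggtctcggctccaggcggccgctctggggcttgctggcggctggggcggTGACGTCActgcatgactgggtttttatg
Nr4a3 (chr4:48045055-48045304, plus strand): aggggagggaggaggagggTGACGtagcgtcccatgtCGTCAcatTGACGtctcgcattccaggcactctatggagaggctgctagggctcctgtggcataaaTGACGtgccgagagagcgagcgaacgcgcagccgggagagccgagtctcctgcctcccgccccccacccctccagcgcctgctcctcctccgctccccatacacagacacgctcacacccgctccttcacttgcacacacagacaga
Zfp36 (chr7:28379229-28379478, minus strand): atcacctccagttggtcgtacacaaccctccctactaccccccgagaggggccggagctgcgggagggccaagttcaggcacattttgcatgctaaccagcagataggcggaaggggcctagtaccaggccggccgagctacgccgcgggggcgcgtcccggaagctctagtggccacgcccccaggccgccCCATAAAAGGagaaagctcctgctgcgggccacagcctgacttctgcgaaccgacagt
Dusp5 (chr19:53528895-53529144, plus strand): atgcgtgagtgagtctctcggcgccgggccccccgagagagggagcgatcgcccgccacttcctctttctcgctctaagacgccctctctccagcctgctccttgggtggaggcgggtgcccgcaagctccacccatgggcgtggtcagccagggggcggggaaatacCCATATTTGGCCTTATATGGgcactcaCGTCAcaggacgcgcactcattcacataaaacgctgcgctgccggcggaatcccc
Of the 34 members, 29 had such a window, and Egr1, Egr3, Ier2, Myc and Cd69 did not. Only these 250 bases were searched, so an element further upstream, or in a member without a window, was not counted. Counting a gene when any of its windows held the motif on either strand, TGACG was present in 16 of 29 members (55.2%) and in 19.8% of 27025 genes with a window. The full element TGACGTCA, which contains TGACG, was in 4 members (13.8%; Btg2, Dusp1, Maff and Ppp1r15a) and in 1.77% of genes. The CArG box was in 3 members (10.3%; Zfp36, Dusp5 and Egr2) and in 1.62% of genes, and an NF-kB site in 5 members (17.2%) and 4.46% of genes. The AP-1 site TGANTCA was in 2 members (6.90%) and 7.82% of genes, the TATA box in 5 members (17.2%) and 14.3% of genes, and the ETS core CCGGAAGT in 0 members and 3.23% of genes.

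The first comparison asked which members each lineage holds at a higher or lower level than the mean of the other lineages, with the 4 libraries as blocks (edgeR's quasi-likelihood test, Benjamini-Hochberg adjustment over 11012 genes). Neutrophils stood out by number: 26 of 34 members were higher there and 5 lower, where 35.1% of all genes were called higher and 42.6% lower, and the median member was 1.86 log2 above the other gates (median of all genes -0.23). B cells had 13 members higher and 12 lower (38.5% and 31.2% of all genes), and NK cells and ILC1 had 9 higher and 12 lower (30.4% and 25.7%). T cells lay at the low end. CD8 T cells had 3 higher and 26 lower (33.8% and 30% of all genes), cells with Cd3e only 6 higher and 16 lower (29.1% and 22.9%), and CD4 T cells 0 higher and 23 lower (33% and 26.6%). DESeq2 also called 0 members higher in CD4 T cells (30.7% of all genes). By mean CPM, 18 members had their highest level in neutrophils, 8 in B cells, 5 in NK cells and ILC1, 2 in CD8 T cells and 1 in cells with Cd3e only. How all genes fall among the gates by this measure was not counted.

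**Figure D1:**
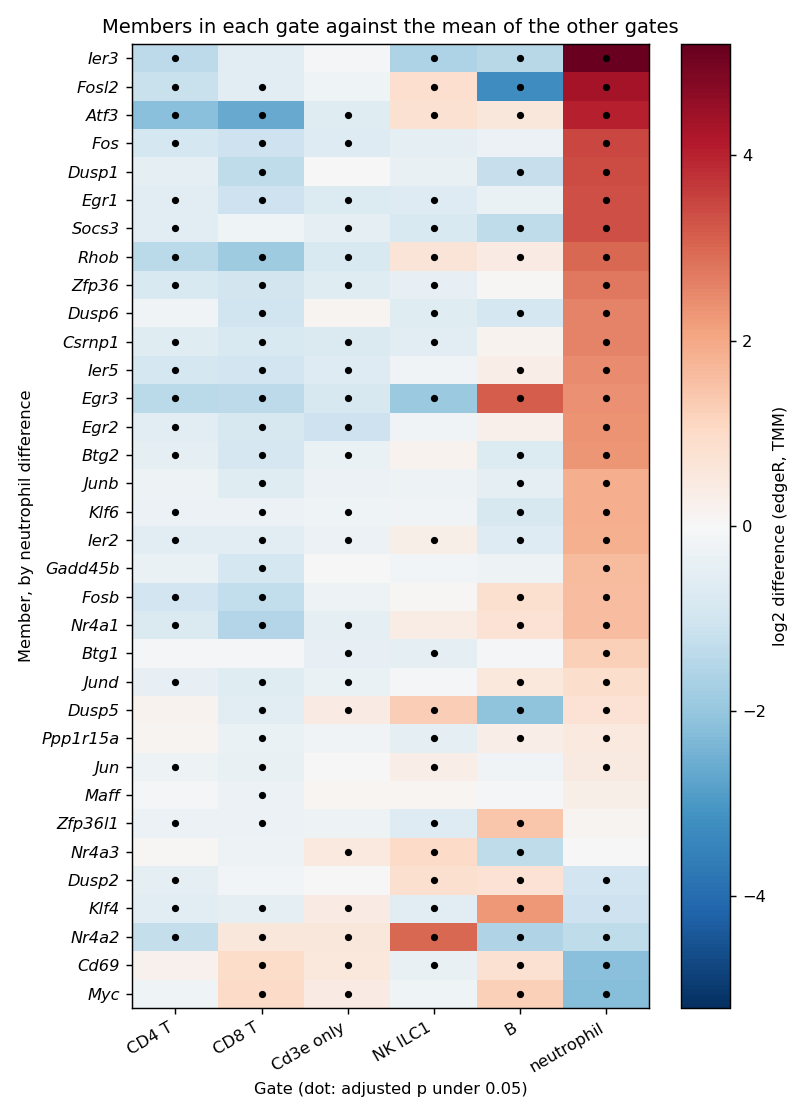
Colour gives the log2 difference of each member (rows, ordered by the neutrophil value) in each gate (columns) from the mean of the other gates over 4 libraries, and a dot marks an adjusted p under 0.05. The neutrophil column holds a red cell with a dot for 26 of 34 members (Jun, Jund, Dusp5 and Ppp1r15a change direction without TMM scaling), while Egr3 and Klf4 lead in B cells and Nr4a2 in NK cells and ILC1.

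The neutrophil counts depend on scaling. Without TMM scaling the median of all genes in the neutrophil gate moved from -0.23 to -1.32, and 21 members were higher and 11 lower (17.3% and 70.5% of all genes). Jun, Jund, Dusp5 and Ppp1r15a changed direction with it, from 0.49, 0.92, 0.74 and 0.51 to -0.62, -0.20, -0.37 and -0.60, and no direction is given for these 4 in neutrophils. With each cell thinned to 500 UMIs before summing, so that cells weigh equally, 26 members were higher and 4 lower in neutrophils (27.8% and 28.5% of all genes). Since the neutrophil level enters the reference of every other gate, the lymphoid gates were also compared among themselves. There B cells had 19 members higher and 10 lower (36.7% and 35.9% of all genes), NK cells and ILC1 16 and 7 (29.5% and 31.6%), cells with Cd3e only 8 and 5 (20.5% and 15.6%), CD8 T cells 6 and 25 (28% and 25.4%) and CD4 T cells 5 and 15 (25.7% and 20.9%).

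Among the AP-1 genes, the FOS subunits pair with JUN subunits to bind TGANTCA sites. Fos was at 6712, 2881, 7734 and 6570.4 CPM in neutrophils and at 577 to 2049 CPM in the other gates (log2 3.48, SE 0.18, adjusted p = 8.9e-15). The URI value lay well below the other 3 neutrophil values, yet still above every lymphoid value. Fosl2, a FOS subunit with more lasting expression, was at 1150.0, 621, 983 and 1428 CPM in neutrophils (log2 4.31, SE 0.18, adjusted p = 8.79e-17). The WT replicate 2 value of NK cells and ILC1 reached into that range. B cells held the least, at 26.5, 22.7, 13.3 and 80.9 CPM (log2 -3.21, SE 0.27, adjusted p = 2.22e-10), and only their WT replicate 2 value overlapped with other gates. NK cells and ILC1 were above the mean of the other gates for Fosl2, at 261, 324, 148 and 716 CPM (log2 0.88, SE 0.20, adjusted p = 0.000586), and CD8 T cells were below the mean of the other gates (-0.59) but above that of the lymphoid gates (0.31, adjusted p = 0.00301, edgeR). In B cells Fosb was at 993, 1414, 723 and 2109 CPM (log2 0.85, SE 0.17, adjusted p = 0.000112), and it was also higher in neutrophils (1.62). Atf3, a stress-induced bZIP repressor, was at 314, 295, 266 and 719 CPM in neutrophils (log2 4.05, SE 0.19, adjusted p = 1.76e-15). It was at 26.8, 14.7, 5.62 and 26.5 CPM in CD8 T cells (log2 -2.63, SE 0.27, adjusted p = 1.06e-08), and CD4 T cells were also low (29.7, 17.0, 3.01 and 64.4 CPM; log2 -2.19, SE 0.25, adjusted p = 1.08e-07). The neutrophil values of Atf3 did not overlap with those of any other tested gate. NK cells and ILC1 (log2 0.79) and B cells (0.59) were above the mean of the other gates for Atf3, and with monocytes counted among those gates the differences were -0.15 and -0.29 and did not pass.

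The JUN subunits varied less. Jun had its highest mean CPM in NK cells and ILC1, at 1912, 1862, 907 and 2568 CPM (log2 0.33, SE 0.10, adjusted p = 0.00746). Jund, the JUN subunit that is expressed at rest, was at 3763, 4448, 2893 and 7617 CPM in B cells (log2 0.56, SE 0.12, adjusted p = 0.000221), and Junb was at 3819, 2382, 3704 and 6054 CPM in neutrophils (log2 1.91, SE 0.13, adjusted p = 1.18e-12). The named gate held the highest CPM in 3 of 4 libraries for Jun, 4 of 4 for Jund and 3 of 4 for Junb, while the ranges over libraries overlapped with those of other gates. Maff, a small MAF protein that lacks a transactivation domain, passed the test in 1 of 6 gates, CD8 T cells (log2 -0.30, SE 0.11, adjusted p = 0.0185), and its level ran from 17.3 to 337 CPM over all gates and libraries.

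The EGR genes encode zinc-finger factors downstream of ERK and, in lymphocytes, of the antigen receptor. Egr1 was at 1289, 1314, 1726 and 1814 CPM in neutrophils and 118 to 588 CPM elsewhere (log2 3.37, SE 0.16, adjusted p = 1.97e-15). Egr3, which restrains lymphocyte activation, was at 591, 634, 578 and 601 CPM in B cells (log2 3.14, SE 0.11, adjusted p = 1.47e-17). These 4 values lie within 578 to 634 CPM, and no other gate exceeded 235 CPM. In neutrophils Egr3 was at 235, 162, 227 and 156 CPM (log2 2.38). It was lowest in NK cells and ILC1, at 25.1, 36.6, 22.6 and 49.0 CPM (log2 -1.93, SE 0.19, adjusted p = 9.1e-09), followed by CD4 T cells (log2 -1.40) and CD8 T cells (73.7, 43.5, 39.8 and 38.5 CPM; log2 -1.35), whose values overlap. Egr2 was sparse in every gate, from 10.1 to 65.3 CPM, and was lower in cells with Cd3e only (16.5, 12.8, 11.2 and 13.9 CPM; log2 -1.06, SE 0.18, adjusted p = 4.37e-05) and higher in neutrophils (2.33).

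The NR4A genes encode ligand-independent nuclear receptors that are used as reporters of antigen-receptor signalling. Nr4a2 was at 435, 444, 215 and 615 CPM in NK cells and ILC1 against 5.68 to 141 CPM in the other 5 tested gates (log2 2.99, SE 0.07, adjusted p = 3.26e-20), with no overlap among those. Outside them, monocytes, gated as described below, were at 127, 109, 125 and 295 CPM (log2 1.40, SE 0.15, adjusted p = 8.24e-09), and their WT replicate 2 value exceeds the WT replicate 1 value of NK cells and ILC1. Among the tested gates Nr4a2 was also above the mean of the others in CD8 T cells (141, 126, 58.4 and 123 CPM, log2 0.58, SE 0.09, adjusted p = 3.12e-06). The same held in cells with Cd3e only (131, 128, 68.1 and 126 CPM, log2 0.59, SE 0.09, adjusted p = 1.13e-05). The values of both gates overlapped, and the gates were not tested against each other. Nr4a2 was low in B cells (36.9, 28.5, 17.3 and 39.8 CPM, log2 -1.57, SE 0.11, adjusted p = 4.33e-12) and neutrophils (5.68 to 27.8 CPM, log2 -1.33). Nr4a3 was at 113, 209, 37.8 and 425 CPM in NK cells and ILC1 (log2 1.01, SE 0.16, adjusted p = 7.03e-06). It was at 139, 128, 35.9 and 292 CPM in cells with Cd3e only (log2 0.53, SE 0.16, adjusted p = 0.00985). With cells thinned to equal depth the latter difference was 0.08. B cells were low for Nr4a3, at 23.0, 44.4, 6.31 and 157 CPM (log2 -1.33). Nr4a1, by contrast, was at 1466, 1311, 870.1 and 2989 CPM in B cells (0.75). It was lowest in CD8 T cells, at 456, 563, 171 and 756 CPM (log2 -1.54, SE 0.21, adjusted p = 1.05e-06).

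The DUSP genes encode phosphatases that shut down MAP kinases. Dusp1, which acts mainly on p38 and JNK, was at 7139.7, 2709.6, 6192 and 4867 CPM in neutrophils and 404 to 2317 CPM elsewhere (log2 3.39, SE 0.19, adjusted p = 2.9e-14). It was lower in CD8 T cells (950.1, 1024, 404 and 1152 CPM; log2 -1.33) and B cells (974, 901, 517 and 984 CPM; -1.21). Dusp6, a cytoplasmic ERK phosphatase, was also higher in neutrophils, at 642, 347, 445 and 445 CPM (2.58). Dusp5, a nuclear ERK phosphatase, split the lymphocytes: it was at 1055, 1293, 845 and 1889 CPM in NK cells and ILC1 (log2 1.30, SE 0.11, adjusted p = 7.51e-10). It was at 143, 167, 111 and 335 CPM in B cells (log2 -2.07, SE 0.15, adjusted p = 7.71e-12), with no overlap. Dusp2 was higher in NK cells and ILC1 (0.83) and in B cells (0.77), at 421, 413, 243 and 641 CPM and 441, 333, 269 and 595 CPM, and lower in neutrophils (27.4 to 157 CPM). Dusp1 and Dusp2 thus had their highest levels in different gates.

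**Figure D2:**
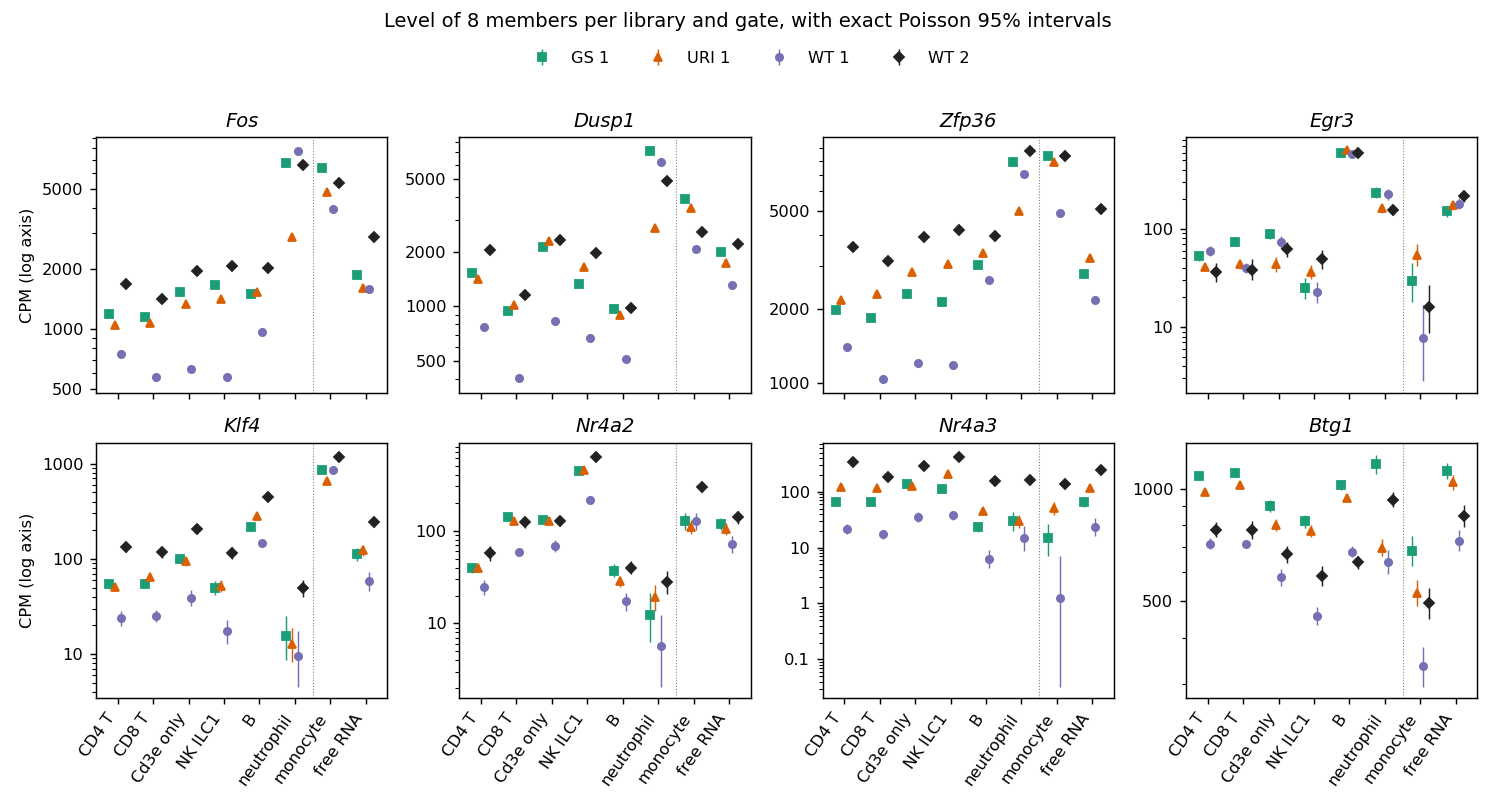
Level in CPM on a log axis of 8 members in the 6 tested gates, in monocytes and in barcodes under 100 UMIs (free RNA), 1 symbol per library with its exact Poisson 95% interval, which covers counting error only. Within each library neutrophils and monocytes lead for Fos, Dusp1 and Zfp36, B cells for Egr3, and NK cells and ILC1 for Nr4a2, and WT replicate 2 lies above WT replicate 1 in every lymphoid gate for Fos, Dusp1, Zfp36, Klf4, Nr4a2 and Nr4a3.

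Among the RNA-decay and feedback genes, Zfp36 (tristetraprolin) was at 7915, 4971, 7060.4 and 8771 CPM in neutrophils and 1044 to 4188 CPM elsewhere (log2 2.75, SE 0.14, adjusted p = 1.13e-14). Its paralog Zfp36l1 was instead highest in B cells, at 1014, 900.4, 848 and 816 CPM (log2 1.43, SE 0.11, adjusted p = 3.57e-11), and no other gate exceeded 434 CPM. Btg2, which recruits the CCR4-NOT deadenylase and restrains proliferation, was at 1555, 1163, 1795 and 2739 CPM in neutrophils (log2 2.28), while Btg1 had the most even CPM of the 34 members, with a highest gate mean 1.37 times its lowest. Socs3 was at 563, 319.8, 497 and 607 CPM in neutrophils (log2 3.37, SE 0.12, adjusted p = 9.18e-18), with no overlap with the other 5 tested gates (50.1 to 157 CPM). Monocytes, at 347, 399, 216 and 423 CPM (log2 1.47, SE 0.12, adjusted p = 3.44e-11), reached into the neutrophil range. Ier3, a stress-induced regulator of survival, had the largest lineage difference of the 34 members in any tested gate, at 808, 619, 851 and 1398 CPM in neutrophils (log2 5.16, SE 0.26, adjusted p = 4.3e-15). It was at 13.1, 41.0, 5.30 and 131 CPM in NK cells and ILC1 (log2 -1.62, SE 0.39, adjusted p = 0.00112). Ier2 and Ier5, nuclear proteins of the same response, were also higher in neutrophils (log2 1.85 and 2.44).

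Of the remaining members, Klf4, a zinc-finger factor of quiescence and monocyte differentiation, was at 216, 281, 147 and 448 CPM in B cells (log2 2.24, SE 0.09, adjusted p = 6.6e-17) and at 9.46 to 49.2 CPM in neutrophils, where its log2 of -1.06 shrank to -0.25 with cells thinned. Klf6 was at 1097 to 1646 CPM in neutrophils (log2 1.88) and lowest in B cells (-0.83). Myc, a driver of growth, was lowest in neutrophils, at 16.4, 37.7, 15.1 and 23.5 CPM (log2 -2.22, SE 0.18, adjusted p = 7.86e-11), and higher in B cells (1.22) and CD8 T cells, at 433, 392, 340.3 and 301 CPM (log2 1.01, SE 0.10, adjusted p = 4.33e-09). Cd69, a lectin that keeps activated lymphocytes in tissue, was also lowest in neutrophils, at 54.4, 50.9, 29.3 and 66.9 CPM (log2 -2.17, SE 0.16, adjusted p = 5.83e-12), against 612, 808, 448 and 883 CPM in CD8 T cells (log2 0.97, SE 0.10, adjusted p = 2.28e-08) and 453, 603, 427 and 652 CPM in cells with Cd3e only (log2 0.56, SE 0.11, adjusted p = 0.000142). For Myc and Cd69 no neutrophil value reached any lymphoid value. Rhob, an endosomal GTPase, was higher in neutrophils (618 to 851 CPM; 2.97). It was lower in CD8 T cells (92.3, 136, 63.6 and 149 CPM; log2 -1.83, SE 0.14, adjusted p = 6.32e-11), CD4 T cells (145, 133, 104 and 172 CPM; log2 -1.41, SE 0.13, adjusted p = 3.57e-09) and cells with Cd3e only (-0.81). Csrnp1 and Gadd45b, a stress-induced activator of p38, were higher in neutrophils (log2 2.56 and 1.64), and Ppp1r15a, which targets a phosphatase to eIF2-alpha, was higher in B cells (0.36) and lower in NK cells and ILC1 (-0.49).

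Monocytes could not be tested under the same gate rule, because barcodes with UMIs of both Csf3r and Csf1r were left out and 16 to 56 cells per library remained. When the larger of the pair decided the gate, a choice made after seeing the data, monocytes numbered 71, 136, 95 and 161 cells, with 7 monocyte and macrophage markers at 12429.6 to 16799 CPM, of which Cx3cr1 was at 0 in all libraries. There 18 members were higher and 9 lower than in the mean of the other gates (31% and 31.6% of 11207 genes). Atf3 was at 2241, 2049, 1227 and 1446 CPM (log2 4.87, SE 0.20, adjusted p = 2.61e-18), above every value in the 6 tested gates. Klf4 was at 855, 650.1, 851 and 1163 CPM (log2 3.69, SE 0.15, adjusted p = 3.37e-18). Nr4a1, which non-classical monocytes need, was at 3507, 3914, 3508 and 5605 CPM (log2 2.30, SE 0.17, adjusted p = 1.35e-12), again above every value in the tested gates. Fos (6347, 4832, 3948 and 5377 CPM), Zfp36 (8310.4, 7872, 4904 and 8373 CPM) and Dusp1 (3873, 3451, 2061 and 2558 CPM) overlapped with the neutrophil range, while Cd69 (16.6 to 55.1 CPM; log2 -2.78, SE 0.18, adjusted p = 7.45e-14), Myc (log2 -1.83, SE 0.27, adjusted p = 1.38e-06) and Egr3 (log2 -1.50, SE 0.30, adjusted p = 0.000111) were lower.

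The next comparison asked how the libraries differ, which the 2 WT libraries show most plainly because they carry the same genotype. WT replicate 2 held more immediate early RNA than WT replicate 1 in every gate. Summed over the 34 members, NK cells and ILC1 were at 23331, 27379.6, 13522 and 39532 CPM, CD8 T cells at 18288, 20517, 11109.5 and 27666 CPM, CD4 T cells at 20582, 20653, 14269 and 31787 CPM, cells with Cd3e only at 23887, 25498, 13061 and 36085 CPM and B cells at 24489.6, 26045, 18462 and 37046 CPM. Within each of these 5 gates the order was the same: WT replicate 1 lowest, GS and URI between, WT replicate 2 highest. WT replicate 2 was 2.92-fold above WT replicate 1 in NK cells and ILC1, 2.76-fold in cells with Cd3e only, 2.49-fold in CD8 T cells, 2.23-fold in CD4 T cells, 2.01-fold in B cells and 1.34-fold in neutrophils (45211, 27326, 43436 and 58039.6 CPM). There is 1 library per side, so this difference has no replicate check and no test. The labels do not say whether the WT libraries were prepared on the same day as each other or as GS and URI, so a difference in preparation cannot be told apart from one between the libraries or genotypes.

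**Figure D3:**
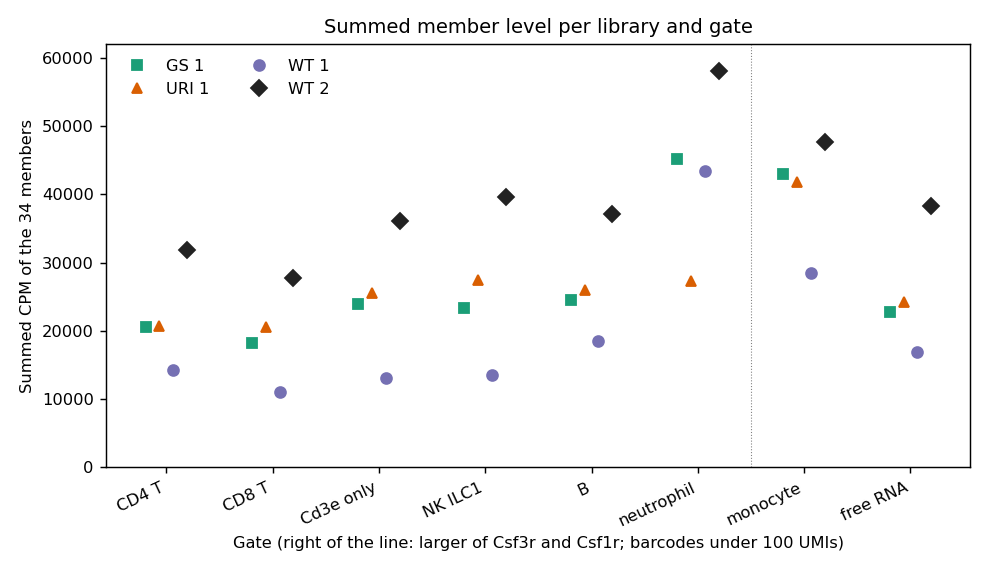
Summed CPM of the 34 members (vertical axis, from 0) in each gate, with 1 symbol per library; monocytes and free RNA stand right of the dotted line. In the 5 lymphoid gates GS and URI lie between WT replicate 1 and WT replicate 2, and in neutrophils URI is the lowest.

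Member by member, with 1 UMI added to each count and genes of at least 20 CPM, 25 of 33 members were at least 2-fold higher in WT replicate 2 in NK cells and ILC1 (3.92% of all genes), 24 of 32 in CD8 T cells (4.15%), 23 of 33 in cells with Cd3e only (4.58%), 21 of 34 in CD4 T cells (3.02%), 18 of 34 in B cells (3.03%) and 14 of 32 in neutrophils (6.99%). None was 2-fold lower in any of these gates, where 2.56% to 5.11% of all genes were. Under TMM scaling the neutrophil count was 9. The median member difference was 1.62 log2 in NK cells and ILC1, 1.52 in CD8 T cells, 1.48 in cells with Cd3e only, 1.23 in CD4 T cells, 1.04 in B cells and 0.71 in neutrophils. Without the limit of 20 CPM, 26 of the 34 members were positive in all 6 gates and 12 were at least 2-fold higher in all 6. Among the 12 was Atf3, whose mean of the 2 WT libraries lay under that limit in CD8 T cells. Counts over all 6 gates were not made for all genes, so these have no background beside them. In monocytes 14 of 31 members were at least 2-fold higher (3.29% of all genes), with a median of 0.96.

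The size of the shift differed between members. Nr4a3 moved most, by a mean of 3.62 log2 over the 6 gates: from 21.7 to 335 CPM in CD4 T cells, from 37.8 to 425 in NK cells and ILC1, and from 6.31 to 157 in B cells, with GS and URI at 23.0 and 44.4 there. Maff followed with a mean of 3.52, from 17.3 to 337 CPM in NK cells and ILC1 (GS 76.6, URI 162). Atf3 (2.72), Csrnp1 (2.41), Klf4 (2.28) and Gadd45b (2.24) came next. In CD4 T cells Atf3 was at 29.7, 17.0, 3.01 and 64.4 CPM and Gadd45b at 328, 404, 168 and 933 CPM; Csrnp1 was at 163, 248, 65.4 and 485 CPM in CD8 T cells and Klf4 at 49.9, 52.0, 17.3 and 115 CPM in NK cells and ILC1. In each of these 4 cases GS and URI lay between the WT libraries, whereas Atf3 in CD8 T cells was at 26.8 CPM in GS and 26.5 CPM in WT replicate 2. At the other end were 2 kinds of member. Myc (mean -0.12) and Egr3 (-0.06) differed in opposite directions between gates: Egr3 by -0.72 in CD4 T cells and 1.11 in NK cells and ILC1, and Myc by -0.75 in CD4 T cells and 0.58 in neutrophils. Myc was at 226, 183, 197 and 117 CPM in CD4 T cells and Egr3 at 25.1, 36.6, 22.6 and 49.0 CPM in NK cells and ILC1. Btg1 (0.21), Btg2 (0.24), Klf6 (0.33) and Zfp36l1 (0.42) differed by less than 2-fold in every gate, with Btg1 at 1101, 1023, 712 and 776 CPM in CD8 T cells. Between them lay other members, with means of 1.46 for Jund, 1.34 for Junb, 1.23 for Zfp36, 1.22 for Jun and 1.12 for Fos.

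Neutrophils shared only part of this shift. For 26 of 34 members the neutrophil difference was smaller than the median of the 5 lymphoid gates, a count that was not made for all genes. Fos differed by -0.24 log2 in neutrophils and by 1.07 to 1.83 in the lymphoid gates, and Dusp1 by -0.35 against 0.93 to 1.57. Egr1 (0.07), Dusp6 (0.00) and Zfp36 (0.31) also differed little in neutrophils. Other members did shift there, from low levels in WT replicate 1. Dusp2 differed by 2.48 (27.4 and 157 CPM in WT replicates 1 and 2) and Nr4a3 by 3.32 (15.1 and 160 CPM). Maff differed by 2.67 (26.5 and 174 CPM) and Klf4 by 2.26 (9.46 and 49.2 CPM). The part of free RNA in the neutrophil values was not estimated. Whether the shift is unequal between gates cannot be tested with 1 library per side.

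**Figure D4:**
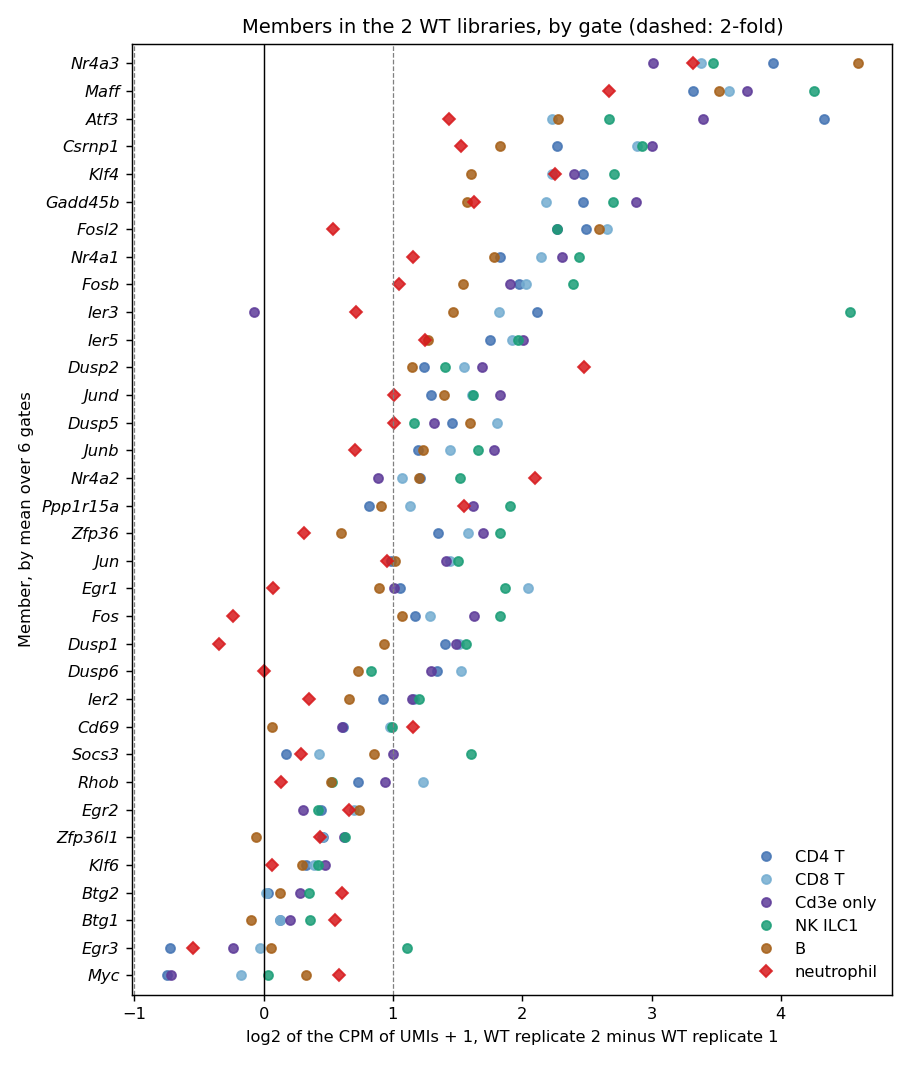
Log2 difference of WT replicate 2 from WT replicate 1 (horizontal axis; CPM after adding 1 UMI) for each member (rows, ordered by the mean over gates), with 1 point per tested gate and diamonds for neutrophils. Nr4a3 and Maff lie at 2.67 or above in all 6 gates, Myc and Egr3 straddle 0, and the neutrophil points of Fos, Dusp1, Egr1 and Dusp6 sit near 0.

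The shift lay in most cells of a gate rather than in a few. After each cell was thinned to 500 UMIs, with no cell left out, the median cell of the NK and ILC1 gate held 5 member UMIs in WT replicate 1 and 18 in WT replicate 2, with 10 in GS and 12 in URI. The 10th percentile moved as well, from 1 to 8 UMIs, as did the 90th, from 12 to 32. The medians were 5 and 12 in CD8 T cells, 6 and 13 in CD4 T cells, 5 and 15 in cells with Cd3e only, 8 and 16 in B cells and 20 and 28 in neutrophils, each for WT replicate 1 and WT replicate 2. The number of different members seen per thinned cell rose from a mean of 4.54 to 9.97 in NK cells and ILC1 and from 9.37 to 12.3 in neutrophils. Cells of 1 library are not replicates, so these are descriptions of the libraries.

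**Figure D5:**
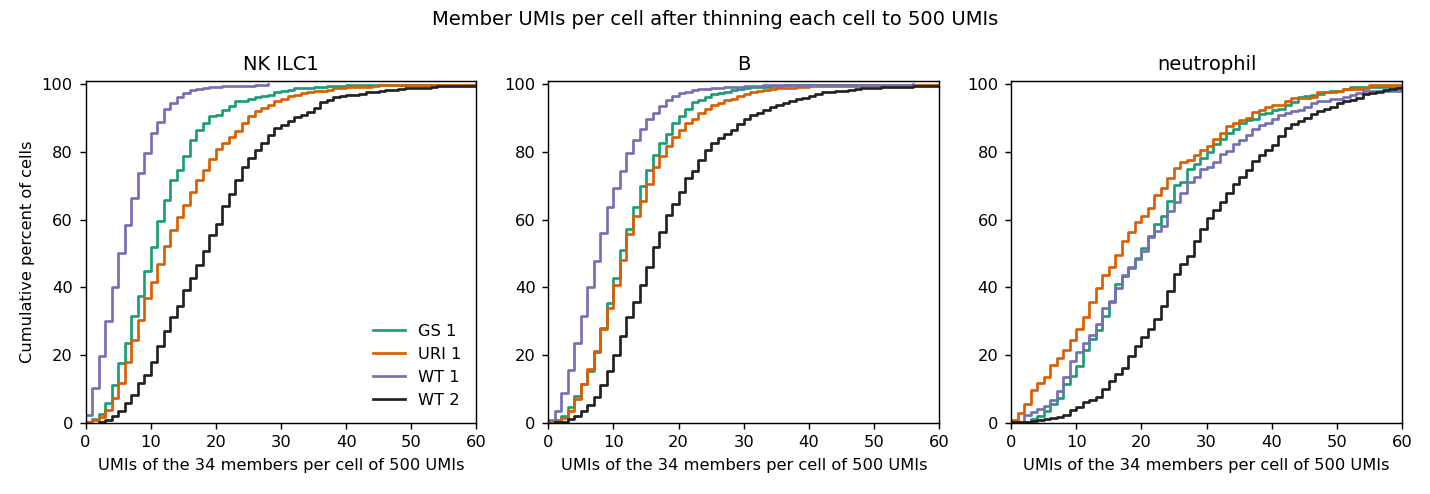
Cumulative percent of cells (vertical axis) by the number of UMIs of the 34 members per cell after thinning to 500 UMIs (horizontal axis), 1 line per library, in 3 gates. The WT replicate 2 median lies at 18 UMIs in NK cells and ILC1, 16 in B cells and 28 in neutrophils, and the WT replicate 1 median at 5, 8 and 20.

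Several measures moved with this difference, and their part in it was not tested. WT replicate 2 had fewer UMIs per barcode than WT replicate 1 (median 2659 and 3763) and a lower mitochondrial share (median 0.226% and 0.527% of UMIs). The make-up of the libraries differed too (percent of barcodes, WT replicates 1 and 2). CD8 T cells were at 16.3% and 6.06%, CD4 T cells 12.6% and 8.37%, and NK cells and ILC1 9.76% and 7.14%. Neutrophils were at 3.81% and 10.7%, B cells 19.0% and 22.6%, and cells with Cd3e only 7.96% and 8.88%. Barcodes without any gate marker were at 2.79% and 7.19%. In free RNA, the barcodes under 100 UMIs, the summed members were at 22768, 24160.1, 16958 and 38266 CPM, the same order as in the lymphoid gates. S100a8 and S100a9, neutrophil genes that lymphocytes lack, were at 312 CPM in the NK and ILC1 gate of WT replicate 2 and 13119 CPM in its free RNA. If free RNA has 1 composition throughout the library and gave all of these UMIs, it made up 2.38% of the gate's UMIs. That part would carry 910.4 of its 39532 member CPM (220.2 of 13522 in WT replicate 1). The same share in WT replicate 2 was 2.45% in CD4 T cells, 2.42% in CD8 T cells, 3.55% in cells with Cd3e only (1358 member CPM) and 3.82% in B cells (1461 member CPM). The summed markers of the gates were also lower in WT replicate 2, at 5481 and 3489 CPM for CD4 T markers in CD4 T cells, 8117 and 5693 CPM for B markers in B cells, 8775 and 7683 CPM for NK markers in NK cells and ILC1, and 138870.0 and 81347 CPM for neutrophil markers in neutrophils (WT replicates 1 and 2).

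Other genes of the pathway, from lists chosen with earlier results of these data known, moved as follows. For scale, 3.02% (CD4 T cells) to 6.99% (neutrophils) of all genes of at least 20 CPM were 2-fold higher per gate. The share 2-fold lower ran from 2.56% (neutrophils) to 5.11% (cells with Cd3e only). Of 31 further immediate early genes, 9 of 22 that reached 20 CPM were at least 2-fold higher in WT replicate 2 in NK cells and ILC1, 11 of 25 in CD4 T cells, 9 of 23 in CD8 T cells, 12 of 23 in cells with Cd3e only, 10 of 21 in B cells and 8 of 21 in neutrophils, and 0 were 2-fold lower. Of 11 NF-kB feedback genes, such as the inhibitor Nfkbia, 4 (B cells and neutrophils) to 7 (CD8 T cells) were 2-fold higher and 0 lower, with summed levels of 2188 and 5938 CPM in CD8 T cells of WT replicates 1 and 2. Of 30 upstream kinases and factors, 0 were 2-fold higher in any lymphoid gate and 1 in neutrophils, and 2 were 2-fold lower in CD4 T cells, 1 in cells with Cd3e only, 1 in NK cells and ILC1 and 0 in the other 3 gates, with median differences of -0.10 to 0.03. In CD8 T cells they summed to 4304, 4214, 4314 and 3992 CPM. Among 15 heat shock genes 0 or 1 was 2-fold higher per lymphoid gate and 3 of 9 in neutrophils, and 1 was 2-fold lower, in CD8 T cells, with 3926 and 2898 CPM in CD8 T cells of the WT libraries. Of the early cytokines and chemokines that reached 20 CPM, 6 of 8 were 2-fold higher in CD8 T cells, 5 of 7 in CD4 T cells, 4 of 8 in NK cells and ILC1, 4 of 9 in cells with Cd3e only, 2 of 6 in B cells and 3 of 8 in neutrophils. In this list 2 were 2-fold lower in cells with Cd3e only, and 1 each in B cells and CD4 T cells.

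The same lists differed between lineages. Of 29 tested further immediate early genes, 17 were higher and 9 lower in neutrophils (35.1% and 42.6% of all genes), led by Trib1 (log2 6.67), Cebpd (8.38) and Cebpb (4.78), regulators of myeloid differentiation. NK cells and ILC1 had 14 higher and 10 lower (30.4% and 25.7% of all genes), with the ERK inhibitor Spry2 (3.92), Bhlhe40 (2.80) and the G-protein regulator Rgs1 (2.60) on top. B cells had 7 higher and 18 lower (38.5% and 31.2% of all genes). In B cells 8 of 11 NF-kB feedback genes were higher and 3 lower (38.5% and 31.2% of all genes), with Rel (2.12), Birc3 (1.51) and Nfkb2 (1.54) among the higher. In neutrophils 8 NF-kB feedback genes were higher and 2 lower (35.1% and 42.6% of all genes). Of 27 tested upstream genes, 15 were higher and 8 lower in neutrophils (35.1% and 42.6% of all genes). In B cells 8 upstream genes were higher and 9 lower (38.5% and 31.2% of all genes). Among the higher were Mapk14 (2.25) and Mapk3 (2.90) in neutrophils, and the calcineurin subunit Ppp3ca (1.24) and Map2k1 (1.16) in B cells. These differences are on the TMM scale.

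For the deletions, the question was whether loss of 1 copy of GS or URI in hepatocytes goes with another immediate early level in liver immune cells. No member passed the test in any of the 6 gates. With edgeR's quasi-likelihood test 0 of 204 member and gate values were called for GS and 0 for URI, with 3 and 9 at an unadjusted p under 0.05, where all genes gave 3 and 6 calls and 0.429% and 1.09% at that unadjusted level. DESeq2 also called 0 members for both, with 1 and 12 unadjusted (0.156% and 0.417% of all genes). The percent of all genes called was 0 in each gate except 0.0289% called higher for GS in B cells, and 0.0292% called higher and 0.0292% lower for URI in cells with Cd3e only. The spread comes from the 2 WT libraries, whose members are far apart, which leaves 1 residual degree of freedom. In simulated data for URI against WT in neutrophils the test recovered 34 of 50 genes set to 0.125 of their level. It recovered 13 of 50 set to 0.25, so in those data a fall to 0.25 was more often missed than found. Recovery was not tested for the members themselves, for GS, or for URI in the other gates. In neutrophils 14 of 32 members were at least 2-fold higher in WT replicate 2 (6.99% of all genes).

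In NK cells and ILC1 the direction of the knockout difference depended on the WT library. The median member of GS differed by 0.84 log2 from WT replicate 1 and by -0.89 from WT replicate 2, and that of URI by 1.07 and -0.47. In neutrophils the URI median was negative whichever WT library was left out, as given below. Most knockout values fell between the WT libraries: 160 of 204 member and gate values for GS and 158 of 204 for URI. GS was above both WT libraries for 32 values and below both for 12 (25.3% and 19.4% of all gene and gate values), and URI above both for 19 and below both for 27 (23.2% and 19.1%). Btg1 was above both WT libraries in 6 of 6 gates in GS and 5 of 6 in URI, for example at 1083, 979, 713 and 778 CPM in CD4 T cells (GS log2 0.51, SE 0.42, adjusted p = 1; URI log2 0.38, SE 0.42, adjusted p = 1). It was at 1025, 948, 679 and 636 CPM in B cells (GS log2 0.62, SE 0.42, adjusted p = 1; URI log2 0.50, SE 0.42, adjusted p = 1). In both gates GS and URI sat above both WT values, and neither difference passed the test. Myc was above both in 5 of 6 gates in GS and 3 of 6 in URI, at 483, 366, 298 and 374 CPM in B cells (GS log2 0.50, SE 0.41, adjusted p = 1). It was at 433, 392, 340.3 and 301 CPM in CD8 T cells (GS log2 0.41, SE 0.42, adjusted p = 1). Egr3 was above both in 3 gates in GS, among them CD8 T cells at 73.7, 43.5, 39.8 and 38.5 CPM (log2 0.89, SE 0.42, adjusted p = 1), where the GS value alone was high. Btg2 was below both WT libraries in 4 of 6 gates in URI, at 702, 547, 646 and 655 CPM in CD8 T cells (log2 -0.26, SE 0.43, adjusted p = 1). It was at 1555, 1163, 1795 and 2739 CPM in neutrophils (log2 -1.02, SE 0.46, adjusted p = 0.882).

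In neutrophils of the URI library, 21 of the 34 members were below both WT values (31.6% of all genes), and the median member difference from WT was -0.88 (all genes -0.02). There Fos was at 6712, 2881, 7734 and 6570.4 CPM (log2 -1.39, SE 0.51, adjusted p = 0.835) and Dusp1 at 7139.7, 2709.6, 6192 and 4867 CPM (log2 -1.11, SE 0.51, adjusted p = 0.882). Likewise Fosb was at 875, 457, 806 and 1671 CPM (log2 -1.48, SE 0.51, adjusted p = 0.766) and Zfp36l1 at 228, 114, 212 and 288 CPM (log2 -1.19, SE 0.41, adjusted p = 0.77). In each of these 4 the URI value was the lowest of the 4 libraries. At an unadjusted p under 0.05 there were 7 of 34 members, and 5.70% of all genes in this gate. Without WT replicate 2 the median difference was -0.37, and with every cell thinned to 500 UMIs it was -0.47. The gate left out barcodes with UMIs of both Csf3r and Csf1r and held 316, 387, 323 and 795 cells. When the larger of the pair decided, it held 655, 720, 631 and 1222 cells, and the median member difference of URI was -0.62.

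The URI neutrophil gate also held more cells rich in granule transcripts, and member levels are given below for these cells and for the rest of the gate. Cells with at least 2% of their UMIs from the granule genes Ngp, Ltf, Camp and Lcn2, which neutrophil precursors transcribe, made up 18.1% of the gate (70 of 387 cells) and 47.6% of its UMIs in URI, against 1.58%, 3.10% and 1.51% of cells in GS, WT replicate 1 and WT replicate 2. They were large, with a median of 13981 UMIs in URI. In these cells the summed members were at 8507, 7911, 7629 and 16999.7 CPM (GS, URI, WT replicate 1, WT replicate 2). Those values rest on 5, 70, 10 and 12 cells, so only the URI value comes from more than a few cells. In the rest of the gate the members summed to 46810.1, 44893, 48024 and 59452 CPM, where URI lay close to GS and WT replicate 1. In the rest of the gate Dusp1 was at 7415, 4935, 6853 and 5017 CPM and Fos at 6967, 4751, 8503 and 6774 CPM, so URI was lowest for Fos and close to WT replicate 2 for Dusp1. The cut of 2% was set after seeing the data, and 1 to 5 cells per library lay close to it. With every cell thinned to 500 UMIs before summing, the Fos difference was -1.03 and the Dusp1 difference -0.60, neither of which passed the test.

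Whether a deletion changed members unequally between gates was tested with the gate by genotype terms of 1 edgeR fit. No member passed for GS (lowest adjusted p = 1, 0% of all genes called) or for URI (lowest adjusted p = 0.635, Zfp36l1, 0.0434% of all genes called). At an unadjusted p under 0.05 were 1 and 10 of 34 members, beside 122 and 541 of all 11520 genes. DESeq2 called 0 members for GS and 1 for URI, Btg2 (adjusted p = 0.0397), among 56 of 11520 genes. Further calls arose under single alternatives. In monocytes, gated by the larger of Csf3r and Csf1r, URI was above WT for Myc, at 23.3, 95.3, 14.1 and 21.8 CPM (log2 2.32, SE 0.44, adjusted p = 0.000232, edgeR), and Egr3, at 29.1, 54.7, 7.67 and 16.1 CPM (log2 2.10, SE 0.52, adjusted p = 0.0216), where 0.339% of 8542 genes were called higher. For both genes the URI value was above all other libraries, and they rest on 108 and 62 UMIs in URI and on 6 to 20 per library elsewhere. Without a filter on low counts, Nr4a3 was lower in GS B cells, at 23.0, 44.4, 6.31 and 157 CPM (log2 -1.86, SE 0.45, adjusted p = 0.0467; 0.0221% of genes called lower), although its GS value lay between the WT libraries.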

How the data were processed

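CD45+ liver cells were profiled by probe hybridisation (10x Fixed RNA Profiling) in 4 libraries. The authors deposited raw UMI counts per gene and barcode, whole numbers without normalisation, made with Cell Ranger 8.0.0 against mm10, per the submitters' processing notes. Barcodes of at least 500 UMIs were gated by raw UMIs of 7 marker genes, and the counts were summed per library and gate. Gates with at least 50 cells in each library were tested with edgeR 4.0.16 (quasi-likelihood, TMM scaling, filterByExpr, Benjamini-Hochberg adjustment over all genes of a fit, 0.05) in R 4.3.3. The comparison of gates had the library as a block. GS and URI were each compared with WT in a fit of 4 libraries with 1 residual degree of freedom, in which the lone library is assumed to vary like WT. DESeq2 1.42.0 was an alternative. The WT libraries were compared without a test, as the log2 ratio of CPM after adding 1 UMI, over genes of at least 20 CPM. Cells were thinned to 500 UMIs for values per cell. The depth per library and Poisson intervals (95%) cover counting error only. The scripts were tested on simulated data. Promoter windows came from RefSeq GRCm38.p6.

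Named genes were chosen by rule: all 34 members by role, and values in each library for the 3 members furthest above and the 2 furthest below the other gates, for the 6 largest and 3 smallest WT differences, and for members past the test or most often outside the WT range in GS or URI; a few more members were named after their values were seen. The members, gene lists and markers were chosen with earlier results of these data known. Alternatives changed the scaling, the tool, the filter on low counts, the gate, the minimum UMIs and the libraries. Cell doublets were left in and removed with Scrublet in 1 alternative, which also required 250 genes per cell and 10% or less mitochondrial RNA. The monocyte gate, the lymphoid comparison, the thinned sums and the granule split were added after seeing the data. Deprecated probes were left out.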

Additional observations from a re-analysis of the deposited data

How the results depend on the processing

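No paired analysis was possible because the groups compared share fewer than 2 replicate numbers. Over all alternatives, 1786 values of single members kept their direction and side of the threshold, 122 kept the direction and no longer passed, and 24 reversed. Without TMM scaling the members higher in CD4 T cells went from 0 to 4 (all genes 33% to 58.7%). In cells with Cd3e only they went from 6 to 10 (all genes 29.1% to 55.3%). Those lower went from 23 to 15 in CD4 T cells (all genes 26.6% to 13.6%). They went from 16 to 6 in cells with Cd3e only (22.9% to 9.21%) and from 5 to 11 in neutrophils (42.6% to 70.5%). Jun turned to 0.027 in CD4 T cells, Klf6 to 0.0515 in cells with Cd3e only, and Jun, Jund, Dusp5 and Ppp1r15a to -0.62, -0.20, -0.37 and -0.60 in neutrophils. Among the lymphoid gates only, 5 members were higher in CD4 T cells (25.7% of all genes), 6 in CD8 T cells (28%) and 16 in NK cells and ILC1 (29.5%). Lower were 15 in CD4 T cells (20.9% of all genes), 5 in cells with Cd3e only (15.6%) and 7 in NK cells and ILC1 (31.6%). There Egr1 (0.14), Klf6 (0.0689) and Socs3 (0.0928) turned in CD4 T cells, Fosl2 (0.31) and Klf6 (0.072) in CD8 T cells, Egr1 (0.00078) and Zfp36 (0.0893) in NK cells and ILC1, and Fos (0.0134), Ier2 (0.0692), Atf3 (0.20), Btg2 (0.10), Klf6 (0.16), Socs3 (0.22) and Myc (-0.0108) in cells with Cd3e only. That reference holds fewer gates. With the larger of Csf3r and Csf1r deciding, 2 members were higher in CD4 T cells (34.7% of all genes) and 5 in NK cells and ILC1 (29.6%). Under that rule Klf4 (-0.45) turned in cells with Cd3e only, Atf3 (-0.15) and Cd69 (0.13) in NK cells and ILC1, and Atf3 (-0.29) in B cells. A gate of 2 UMIs and a minimum of 1000 UMIs each gave 1 member higher in CD4 T cells. Thinned cells gave 1 there (18.4% of all genes) and 2 in cells with Cd3e only (12.6%). Leaving out 1 library gave 0 to 1 members higher in CD4 T cells (1 without URI replicate 1) and 10 to 18 lower in cells with Cd3e only (10 without GS replicate 1). The share of all genes was not counted for the gate of 2 UMIs, the minimum of 1000 UMIs and the left-out libraries.

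For GS, 3 genes were called over the 6 gates, and 8 without TMM scaling, 9 with no filter on low counts (1 member, Nr4a3), 1 with 2 UMIs per marker and 1 at 1000 UMIs. For URI, 6 genes were called, and 88 without TMM scaling, 24 with no filter, 118 with 2 UMIs per marker, 17 at 1000 UMIs, 14 with the larger of Csf3r and Csf1r deciding and 20 with thinned cells. The added monocyte gate gave 4 further calls for GS and 33 for URI (2 members, Egr3 and Myc). The URI neutrophil median ran from -1.20 without WT replicate 1 to -0.37 without WT replicate 2. DESeq2 called 1 member for URI by gate. Between the WT libraries, the neutrophil count of 14 was 9 with TMM-scaled CPM and the median of 0.71 was 0.53. Except where the text above names it, the cause was not tested. The knockout comparisons have 1 residual degree of freedom. On simulated data for URI in neutrophils (7906 genes) 33 of 50 genes raised 4-fold were recovered and 49 of 50 raised 8-fold. Recovery for the members themselves was not tested.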

Other observations

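Cells with both Cd3e and Ncr1 UMIs numbered 131 (GS), 111 (URI), 126 (WT replicate 1) and 43 (WT replicate 2) and were not tested because 1 library held under 50. Scrublet marked 3.82%, 5.41%, 5.56% and 16.3% of them as doublets, above its share in every other gate of the same library (at most 2.01%), and the part of doublets in the values below was not tested. The summed immediate early genes stood there at 23338, 29728, 12824 and 39144 CPM, in the same order of libraries as in the lymphoid gates. Nr4a2, the receptor gene that led in NK cells and ILC1 among the tested gates, was at 362, 369, 224 and 487 CPM, and Nr4a3 at 105, 241, 18.1 and 499.8 CPM. Dusp5, the nuclear ERK phosphatase, was at 905, 1088, 573 and 1543 CPM, and Cd69, the tissue retention lectin, at 432, 848, 314 and 691 CPM.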
